A study of Mus musculus with 21 samples.

Results

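The proliferation and cell cycle genes are 50 genes that encode parts of the machinery with which a cell copies its DNA and divides. They were chosen by gene symbol, with a rule that uses no measured value, and they are 50 of the 49510 genes in the count table. Earlier results of these data were known when they were chosen. All 50 were found, all are annotated as protein coding, and all passed the filter on low counts. They are described in 3 lists: 13 S phase members, 29 mitotic members, and 8 other members that act at the G1/S boundary or are abundant in cycling cells. The study sequenced RNA of T cells from Foxp3-GFP mice, 8 weeks old, taken 7 days after an infarction of the heart, in which muscle dies for lack of blood. Foxp3-GFP is a fluorescent reporter of the transcription factor that defines regulatory T cells (Tregs), and separates them from conventional T cells (Tconvs). There are 7 groups of 3 libraries: Tregs of the injured heart, the spleen, the heart-draining mediastinal lymph node (MLN) and a non-draining lymph node (NDLN), and Tconvs of the heart, spleen and NDLN. All 7 groups come from infarcted mice of this 1 genotype, so no group shows T cells without infarction, and there are no MLN Tconvs.

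Before a cell divides, the MCM helicase is loaded on origins of replication in G1, and in S phase it unwinds DNA while the sliding clamp PCNA holds the polymerases on the template. Transcription of these S phase genes is driven mainly by E2F factors, while the genes of mitosis are switched on later, in G2, through promoter elements named the CCAAT box and the cell cycle genes homology region (CHR). Tregs are known to cycle more than naive conventional T cells at rest, and both kinds of T cell divide when they meet antigen.

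Levels are given as CPM, counts scaled to the same library size with TMM factors, which adjust for differences in composition. The libraries hold 14515387 to 28323649 counts on genes, and 9469 to 16239 genes had at least 1 count. They were made from very small amounts of RNA, and replicates varied widely, with a coefficient of variation of 1.48 beyond counting error (common dispersion 2.19). Single members were often at 0 in 1 library and well above 10 CPM in another of the same group. Whether replicates are separate animals is not stated, so a p-value here measures only the spread between these libraries, which may be technical. A set of 5 libraries stood apart, with mitochondrial ribosomal RNA at 0.0567 to 0.102% of counts against 0.954 to 12.3% in the other 16. The set holds MLN Treg 1 and 2, heart Treg 1 and heart Tconv 1 and 2, so it crosses some of the comparisons below. The sort held in the data: Foxp3 had 829 to 5628 counts in the Treg libraries and 0 to 4 in the Tconv libraries, and all 9 T cell markers were detected in all 21 libraries.

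Markers of other cells moved with some groups. The summed level of 8 B cell markers was 312 to 546 CPM of the library total in spleen Tregs, 256 to 326 in NDLN Tregs and 66.7 to 122 in MLN Tregs, against at most 23.4 in heart Tregs and at most 50.7 in any Tconv library. Erythroid markers, 10 genes led by the globins, reached 23900 CPM in spleen Tregs and 30200 in MLN Tregs, and were at most 117 in the heart groups. Of 8 fibroblast markers, 7 were detected in each heart Treg library (145 to 495 CPM in sum), and 8, 8 and 1 in the heart Tconv libraries, at 185, 125 and 1.44 CPM. Dendritic cell markers summed to 11.7 to 180 CPM and macrophage markers to 0.447 to 179 in heart Tconvs, against at most 30.7 and 50.6 in heart Tregs. The 8 markers of CD8 T and NK cells summed to 1460 to 3580 CPM in heart Tregs and 1640 to 2180 in heart Tconvs, against 446 to 2230 in spleen Tconvs and 90.6 to 175 in NDLN Tconvs. Of these 8 markers, 7, 3 and 6 were detected in heart Treg 1, 2 and 3, and 7, 5 and 6 in heart Tconv 1, 2 and 3. Cd8a had 0 counts in each heart Treg library and in heart Tconv 2 and 3, and 153 in heart Tconv 1. The heart Treg sums thus came from other markers of the list. The highest sum, 3580 CPM in heart Treg 2, came from 3 of the 8 markers. The part of these cells in the results below was not tested. In a bulk library, fewer cycling cells and less of the RNA per cycling cell cannot be told apart.

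The members as a whole were higher in Tregs than in Tconvs, and most clearly so for the mitotic list. The summed level of the 29 mitotic members lay between 537 and 2688 CPM in the 12 Treg libraries and between 43.8 and 461 CPM in the 9 Tconv libraries, with no overlap. By group, the mitotic sum was 1875 ± 982 CPM in NDLN Tregs, 1731 ± 982 in spleen Tregs, 1391 ± 863 in MLN Tregs and 1029 ± 531 in heart Tregs (SD, n = 3), and neighbours in this order overlapped. In Tconvs it was 312 ± 22.1 CPM in heart, 305 ± 90.2 in spleen and 197 ± 230 in NDLN, again with overlap. Cenpa alone gave a large share of the Tconv sums, and without it the heart Tconvs stood at 151 to 169 CPM, below every Treg library. The sum of the 13 S phase members had another order. It was highest on average in heart Tregs, at 1022, 1231 and 1292 CPM, which were above all MLN and NDLN Treg libraries but overlapped the spleen Tregs and heart Tconvs. Next came heart Tconvs at 850, 1060 and 674, which overlapped the MLN Tregs (980, 808 and 750), NDLN Tregs (893, 949 and 716) and spleen Tregs (502, 1155 and 850). Spleen Tconvs (397, 508 and 314 CPM) and NDLN Tconvs (352, 538 and 319) were lowest. Pcna makes up a large part of the S phase sum. Pcna alone was at 537, 634 and 418 CPM in heart Tconvs, against 241, 277 and 302 in MLN Tregs. The place of heart Tconvs above the MLN, NDLN and spleen Treg means thus rests on Pcna. The gap between heart and MLN Tregs also rests largely on Pcna, with means of 587 and 274 CPM. Against NDLN Tregs, with a Pcna mean of 401 CPM, Pcna gives only a part of the gap. The 6 MCM genes, without Pcna, had a mean sum of 295 CPM in heart Tregs and 165 in NDLN Tregs, with no overlap.

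**Figure D1:**
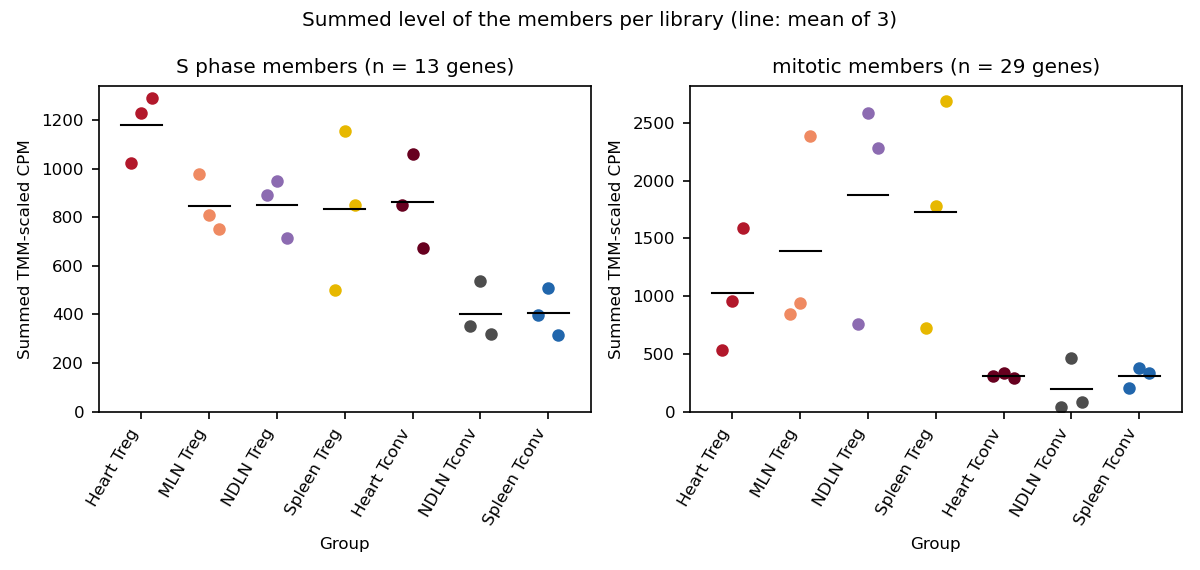
Summed level of the S phase members (left) and the mitotic members (right) in TMM-scaled CPM, 1 point per library and a line at the mean of 3. The mitotic sums of the Treg libraries start at 537, above the highest Tconv library at 461. The S phase sums of heart Tconvs lie among those of the Tregs, with a large part of them from Pcna.

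**Figure D2:**
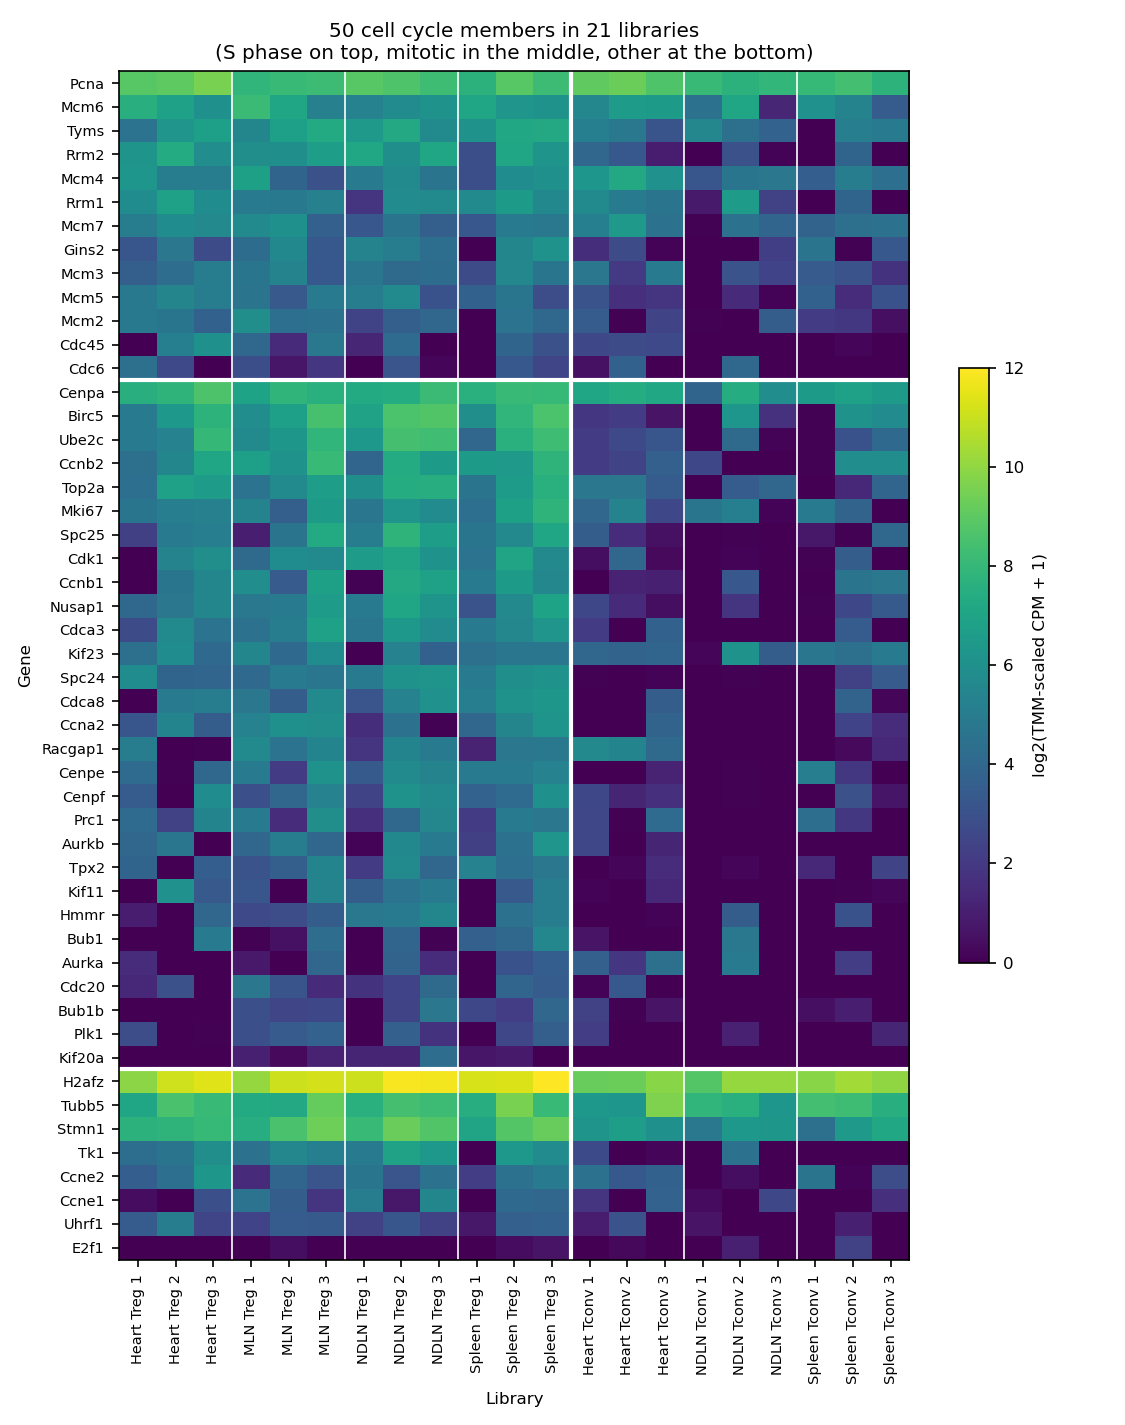
Level of each of the 50 members (rows) in each of the 21 libraries (columns) as log2 of TMM-scaled CPM + 1, with Tregs left and Tconvs right of the thick vertical line. Most mitotic members are dark in the Tconv columns, and H2afz, Tubb5, Stmn1, Pcna and Cenpa are seen in every library.

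Tregs were set against Tconvs of the same organ, to ask whether they differ in these genes. In the NDLN 45 of 50 members had a higher fitted level in Tregs, in the spleen 48 of 50 and in the heart 40 of 50, against 51, 51.8 and 43.7% of the 14996 genes tested. The median log2 fold change of the mitotic members was 2.54 in the heart, 3.69 in the spleen and 10.30 in the NDLN, where many were at or near 0 in Tconvs. With groups of 3 or fewer counts held at a floor of 3 counts over the group, the NDLN median was 7.10, while that of the heart was 2.60 and that of the spleen 3.63. The S phase medians were 1.12, 1.94 and 1.49, and the medians of all genes tested lay at -0.12, 0.06 and 0.04. Every Treg library was above every Tconv library for 14 members in the heart, 19 in the spleen and 32 in the NDLN, that is 28, 38 and 64% of the members, against 4.07, 7.12 and 7.99% of all genes. The reverse held for 2 members, Aurka and Bub1b, in the heart, and for 0 in the spleen and the NDLN. That is 4, 0 and 0% of the members, against 8.17, 5.67 and 4.16% of all genes, so the heart share is below its background. Across all groups, 32 of 50 members had a higher mean in each of the 4 Treg groups than in any of the 3 Tconv groups, among them 21 of 29 mitotic and 7 of 13 S phase members. The share of all genes for which this holds was not computed, so these counts have no background beside them.

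Few single members passed the test. edgeR's quasi-likelihood test with Benjamini-Hochberg adjustment over all genes called 2 members higher in NDLN Tregs, where 0.3% of all genes were called. It called 0 in the heart and 0 in the spleen, where 0.0667% and 0.06% of genes were called, while an unadjusted p under 0.05 was found for 10 members in the heart (9 higher, 1 lower), 19 in the spleen and 28 in the NDLN, all of these higher in the latter pair of organs. These are 20, 38 and 56% of the members, against 7.81, 7.33 and 11.6% of all genes at the same threshold. DESeq2 called 6 members in the heart (5 higher and 1 lower, background 6.54%), 11 in the spleen (background 5.99%) and 25 in the NDLN (background 11%). limma-voom called 1 (background 1.19%), 3 (background 0.874%) and 15 (background 1.61%). In the heart the DESeq2 count is nearer to its background than in the NDLN, where the share of members called was above the background with each of the 3 tools. The edgeR counts are the main ones here.

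**Figure D3:**
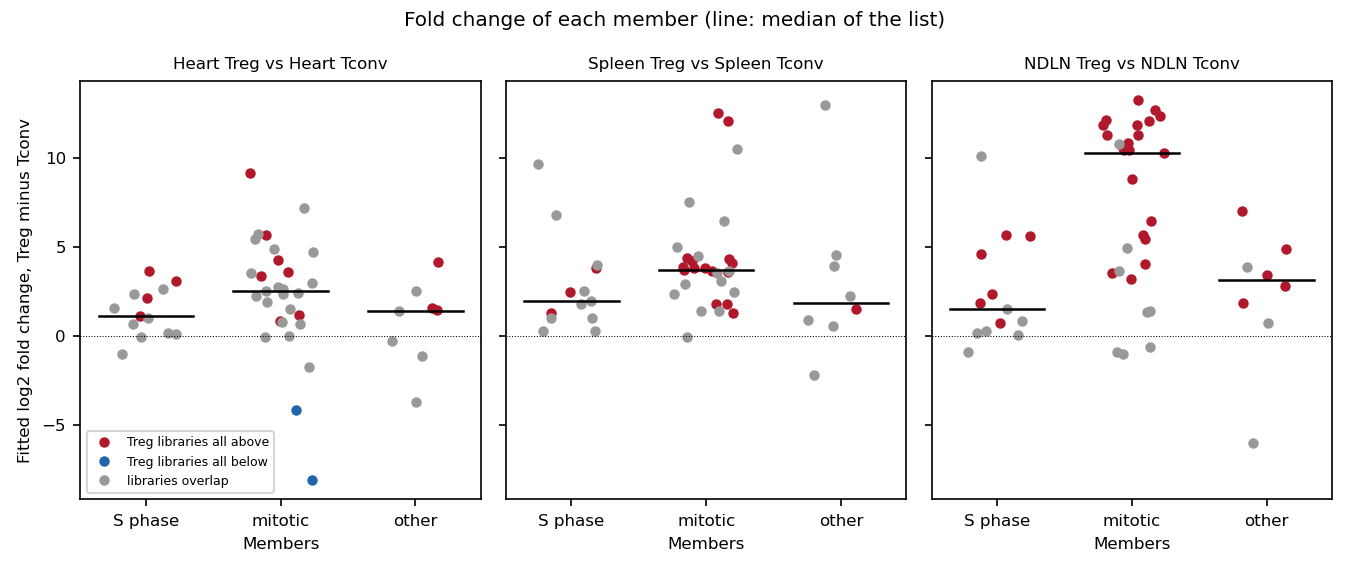
Fitted log2 fold change (Treg minus Tconv) of each of the 50 members in heart, spleen and NDLN, by list, with a line at the list's median; red points are members whose 3 Treg libraries all lie above the 3 Tconv libraries, blue the reverse. The mitotic medians are 2.54, 3.69 and 10.30, and folds near 10 in the NDLN come from Tconv groups at or near 0 counts, so their size is not a bound.

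The called members of the NDLN comparison are the partners Spc24 and Spc25, a pair of subunits of the NDC80 complex that ties kinetochores to spindle microtubules. Spc24 (chr9:21755442-21760303, minus strand, GRCm38) was at 29.5, 69.4 and 72.9 CPM in NDLN Tregs and at 0, 0.0418 and 0 CPM in NDLN Tconvs, a total of 3638 against 1 count. The groups were far apart, and the log2 fold change was 11.29 (SE 2.04, edgeR adjusted p = 0.02). With 1 count in the Tconvs the ratio has a 95% counting interval of 541 to 119034, which covers counting error only. In the heart Spc24 was at 56.7, 13.6 and 14 CPM in Tregs and at 0.045, 0 and 0.0874 in Tconvs, which also did not overlap (log2 fold change 9.15, SE 1.85, edgeR adjusted p = 0.076; DESeq2 4.3e-09). In the spleen it was at 31.2, 62.2 and 69.5 CPM in Tregs and 0, 3.93 and 9.79 in Tconvs (log2 fold change 3.57, SE 1.41, edgeR adjusted p = 0.62). So its Treg and Tconv libraries were apart in all 3 organs, with 1 of the 3 differences called by edgeR.

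Spc25 (chr2:69193895-69206194, minus strand, GRCm38) was at 33.3, 224 and 106 CPM in NDLN Tregs and 0, 0.0418 and 0 CPM in NDLN Tconvs, 7226 against 1 count. The difference was called (log2 fold change 12.35, SE 2.55, edgeR adjusted p = 0.039). Both calls were lost when only the 2 groups compared were fitted, with edgeR adjusted p of 0.11 for Spc24 and 0.061 for Spc25, while the log2 fold changes of 11.20 and 12.23 stayed close to those above. With 1 of the 6 libraries left out at a time, the Spc25 call was kept only without NDLN Treg 1, and was lost without NDLN Treg 2 or 3 or NDLN Tconv 1, 2 or 3 (edgeR adjusted p of 0.054 to 0.15). The Spc24 call was lost without NDLN Tconv 1 (adjusted p = 0.066) and with only the 16 libraries with more mitochondrial ribosomal RNA (0.064). In heart Tregs Spc25 was at 3.88, 29.6 and 34.1 CPM against 10.8, 1.89 and 0.437 in heart Tconvs, which overlap. In spleen Tregs it was at 24.3, 48.4 and 131 against 0.693, 0.0393 and 15.1 in spleen Tconvs, which do not.

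The other centromere and kinetochore members carry the histone H3 variant of centromeres, Cenpa, the kinetochore proteins Cenpe and Cenpf, and the checkpoint kinases Bub1 and Bub1b. Cenpa was the only mitotic member with counts in all 21 libraries. It was at 189, 225 and 398 CPM in heart Tregs against 135, 172 and 144 in heart Tconvs, at 197, 267 and 266 in spleen Tregs against 92.3, 114 and 91.7 in spleen Tconvs, and at 162, 174 and 291 in NDLN Tregs against 13.8, 173 and 57.6 in NDLN Tconvs. The heart and spleen groups did not overlap, and the log2 fold changes were 0.85 (SE 0.55), 1.29 (SE 0.56) and 1.36 (SE 0.56) in edgeR, with adjusted p of 0.7, 0.62 and 0.42. Cenpe and Cenpf each had 1 count in all NDLN Tconvs together, against 2108 and 2547 counts in NDLN Tregs.

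Bub1b, a spindle checkpoint protein, went the other way in the heart. It was at 0, 0 and 0 CPM in heart Tregs, and at 4.1, 0.041 and 0.568 in heart Tconvs. It was at 6.64, 4.71 and 5.08 in MLN Tregs, 5.1, 3.49 and 14.8 in spleen Tregs and 0, 4.47 and 25.9 in NDLN Tregs. Heart Tregs were thus the only Treg group without a Bub1b count. Against the floor of 3 counts over the heart Treg group, mean Bub1b was at least 38.9-fold higher in heart Tconvs. In MLN, spleen and NDLN Tregs the mean was at least 136-fold, 193-fold and 251-fold higher. These folds cover counting error only, and NDLN Treg 1, at 0, overlapped the heart Tregs. The heart Tconv value comes mostly from heart Tconv 1 at 4.1 CPM, while heart Tconv 2 at 0.041 CPM is near 0. None of these was called by edgeR, with adjusted p of 0.6, 0.47, 0.35 and 0.17; DESeq2 gave 0.026 for the heart comparison. The partner kinase Bub1 was at 0, 0 and 29.7 CPM in heart Tregs, so a single library carried it.

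The mitotic cyclins and their kinase start division: Cdk1 is the kinase of mitosis, activated by the cyclins Ccna2, Ccnb1 and Ccnb2. Cdk1 was at 97.5, 127 and 71.4 CPM in NDLN Tregs against 0, 0.0835 and 0 in NDLN Tconvs, at 22.5, 126 and 49.5 in spleen Tregs against 0.0433, 10.5 and 0 in spleen Tconvs, and at 0, 39.9 and 59.5 in heart Tregs against 0.36, 14.5 and 0.219 in heart Tconvs. The NDLN and spleen groups did not overlap, while in the heart they did. With 2 counts in all NDLN Tconvs, the NDLN ratio of 2595 has a 95% counting interval of 718 to 21430. The log2 fold changes were 11.29 (SE 2.88), 4.23 (SE 2.06) and 2.72 (SE 1.93), with edgeR adjusted p of 0.12, 0.62 and 0.76. Ccnb2 was at 13.9, 164 and 91.8 CPM in NDLN Tregs and at 5.16, 0 and 0 in NDLN Tconvs (log2 fold change 5.70, SE 1.85, edgeR adjusted p = 0.32). In the spleen it was at 93.1, 86.4 and 224 against 0.0433, 57.3 and 58.8, and in the heart at 20.3, 44.2 and 137 against 3.38, 4.51 and 12, so no organ had overlapping Ccnb2 groups. Per kilobase of exon, Ccnb2 had the highest mean level of the 29 mitotic members, 45.7 CPM per kilobase over all libraries. Ccna2 had 0 counts in NDLN Tconvs, against 423 in NDLN Tregs.

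Mki67 encodes the Ki-67 protein that coats mitotic chromosomes and is the usual marker of cycling cells, and Top2a encodes the topoisomerase that untangles DNA before chromosomes part. Mki67 was at 24.3, 33.8 and 36 CPM in heart Tregs against 14.6, 39.7 and 5.11 in heart Tconvs, at 19.8, 111 and 221 in spleen Tregs against 29.2, 12.9 and 0 in spleen Tconvs, and at 25.3, 74.7 and 53.9 in NDLN Tregs against 24.7, 34.7 and 0.0863 in NDLN Tconvs. All 3 pairs of groups overlapped, and the log2 fold changes were 0.66 (SE 1.44), 3.06 (SE 1.55) and 1.37 (SE 1.46), none called. Top2a separated the groups better: it was at 62.7, 174 and 177 CPM in NDLN Tregs against 0, 10.3 and 14.7 in NDLN Tconvs, and at 23.9, 97.8 and 195 in spleen Tregs against 0, 1.53 and 14 in spleen Tconvs. Its log2 fold changes were 4.05 (SE 1.59, edgeR adjusted p = 0.42) and 4.35 (SE 1.61, adjusted p = 0.62). In the heart Top2a was at 19.9, 115 and 97.3 CPM in Tregs and 25.9, 26.1 and 10.2 in Tconvs, which overlap.

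Birc5 (survivin), Aurkb and Cdca8 form the chromosomal passenger complex, which corrects wrong attachments of chromosomes. Birc5 was at 29.6, 82.3 and 213 CPM in heart Tregs and 2.7, 3.2 and 0.568 in heart Tconvs. These groups did not overlap, and the log2 fold change of 5.65 (SE 2.04) had an edgeR adjusted p of 0.6 (DESeq2 0.0029). In the NDLN it was at 119, 390 and 421 against 0, 79 and 2.24 CPM, and in the spleen at 59.5, 238 and 383 against 0.0433, 69.4 and 53.7, where library 1 of the Tregs fell below library 2 of the Tconvs. Aurkb, the kinase of the complex, had 0 counts in spleen Tconvs and in NDLN Tconvs. It was at 3.83, 21.7 and 75 CPM in spleen Tregs and at 0.0953, 47.7 and 29.7 in NDLN Tregs, at least 736-fold and at least 453-fold above the floor of 3 counts over the group. edgeR gave adjusted p of 0.42 and 0.23. In the heart the Aurkb groups overlapped (14.4, 25.5 and 0 against 4.91, 0 and 1.4 CPM).

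Ube2c is the ubiquitin-conjugating enzyme of the anaphase-promoting complex, and Cdc20 its activator. Ube2c was at 28.4, 39.5 and 254 CPM in heart Tregs and at 3.33, 5.21 and 8.17 in heart Tconvs, with no overlap (log2 fold change 4.26, SE 1.8, edgeR adjusted p = 0.6; DESeq2 0.048). In the NDLN it was at 83.2, 346 and 321 against 0, 16.7 and 0.0863 CPM, also with no overlap (log2 fold change 5.47, SE 1.91, edgeR adjusted p = 0.39). The spleen groups overlapped, at 14.4, 195 and 311 against 0.0433, 7.2 and 16.2 CPM. Cdc20 had 0 counts in spleen and in NDLN Tconvs. Tpx2 brings the spindle kinase Aurka to microtubules, and it was at 3.43, 51.7 and 14.8 CPM in NDLN Tregs against 0, 0.125 and 0 in NDLN Tconvs. Aurka itself did not follow the list: its mean was 11.7 ± 8.81 CPM in heart Tconvs against 0.631 ± 1.09 in heart Tregs (SD, n = 3; log2 fold change -4.20, SE 3.44, edgeR adjusted p = 0.87), with no overlap.

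The spindle and cytokinesis members include Racgap1, a regulator of the contractile ring, Nusap1, which bundles spindle microtubules, and the kinesins Kif11, Kif20a and Kif23. Nusap1 was at 29, 134 and 73.9 CPM in NDLN Tregs against 0, 2.63 and 0 in NDLN Tconvs, and at 15, 26.1 and 44.8 in heart Tregs against 5.09, 1.68 and 0.35 in heart Tconvs. Neither pair overlapped, while the spleen groups, at 7.43, 48.7 and 124 against 0.0433, 5.15 and 9.5, did. For NDLN and heart, the log2 fold changes were 6.45 (SE 1.92, edgeR adjusted p = 0.23) and 3.59 (SE 1.67, adjusted p = 0.6). Cdca3, a trigger of mitotic entry, was at 25.5, 84 and 54.6 CPM in NDLN Tregs and had 0 counts in NDLN Tconvs, at least 960-fold above the floor of 3 counts over the group (edgeR adjusted p = 0.091). Its heart groups overlapped (5.77, 52.3 and 22.9 against 3.42, 0 and 12.2 CPM). Kif20a had 0 counts in heart Tregs and in all 3 Tconv groups, and reached 18.5 CPM in 1 NDLN Treg library. Kif23 stood at 14.8, 13 and 14 CPM in heart Tconvs and 25.5, 20.3 and 30.5 in spleen Tconvs, against 31.3 ± 22.4 and 23.8 ± 2.69 CPM in the Tregs of those organs (SD, n = 3). The spleen groups overlapped, and the heart groups were apart by a narrow gap (log2 fold change 1.16, SE 1.5, edgeR adjusted p = 1).

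In the NDLN Tconvs 10 of the 29 mitotic members had 0 counts in all 3 libraries together, and 16 had 3 or fewer. These 10 were Ccna2, Cdc20, Cdca3, Cdca8, Aurkb, Bub1b, Kif11, Kif20a, Racgap1 and Prc1. In spleen Tconvs 4 mitotic members were at 0 and in heart Tconvs 1, while the spleen, NDLN and MLN Tregs had counts for all 29. NDLN Tconv 2 held most of what this group had: its mitotic sum was 461 CPM, against 43.8 and 85.5 in the other 2 libraries. The NDLN Tconv libraries also had few genes detected, at 10268, 9469 and 10991. Spleen Tconvs had 10167, 13059 and 11894, and heart Tconvs 15373, 13333 and 16239. The share of all genes at 0 in each group was not computed, and the part of this difference in the counts above was not tested. By counting error alone, a count of 0 allows a level of up to 0.109 to 0.207 CPM of the library total in these 3 libraries. That limit leaves out the wide spread between replicates, so a member at 0 is not shown to be below it or absent.

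The promoters of a few members are shown because most mitotic members had higher fitted levels in Tregs in each organ, with exceptions such as Aurka and Bub1b in the heart. Each line gives the 250 bases before the transcript start as listed by RefSeq on GRCm38.p6, 5′ to 3′ on the gene's strand. Capitals mark 3 kinds of motif on either strand: the CHR (TTTGAA or TTCGAA), the CCAAT box (CCAAT), and an E2F site (TTTCCCGC, TTTCGCGC, TTTGCCGC or TTTGGCGC), which may overlap each other. On the opposite strand TTTGAA reads TTCAAA and CCAAT reads ATTGG. Ccnb2, Top2a and Mki67 are mitotic members that hold both CHR and CCAAT boxes, Spc25 is a called member, and Mcm6 is an S phase member with E2F sites.
Ccnb2, chr9:70421555-70421804, minus strand: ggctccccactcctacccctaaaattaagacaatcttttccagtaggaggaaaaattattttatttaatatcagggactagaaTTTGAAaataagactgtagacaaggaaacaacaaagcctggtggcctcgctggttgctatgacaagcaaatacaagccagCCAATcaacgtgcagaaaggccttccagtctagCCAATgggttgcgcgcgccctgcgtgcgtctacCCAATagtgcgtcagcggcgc
Top2a, chr11:99024190-99024439, minus strand: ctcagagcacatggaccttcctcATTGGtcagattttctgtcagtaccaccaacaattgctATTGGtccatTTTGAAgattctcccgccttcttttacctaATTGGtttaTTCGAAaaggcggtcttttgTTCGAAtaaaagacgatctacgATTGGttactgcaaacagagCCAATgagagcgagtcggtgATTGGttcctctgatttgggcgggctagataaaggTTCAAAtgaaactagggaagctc
Mki67, chr7:135716380-135716629, minus strand: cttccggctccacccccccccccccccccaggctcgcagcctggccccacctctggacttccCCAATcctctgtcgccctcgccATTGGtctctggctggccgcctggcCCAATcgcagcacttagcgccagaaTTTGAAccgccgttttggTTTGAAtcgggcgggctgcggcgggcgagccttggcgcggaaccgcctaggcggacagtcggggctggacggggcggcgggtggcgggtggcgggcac
Spc25, chr2:69206214-69206463, minus strand: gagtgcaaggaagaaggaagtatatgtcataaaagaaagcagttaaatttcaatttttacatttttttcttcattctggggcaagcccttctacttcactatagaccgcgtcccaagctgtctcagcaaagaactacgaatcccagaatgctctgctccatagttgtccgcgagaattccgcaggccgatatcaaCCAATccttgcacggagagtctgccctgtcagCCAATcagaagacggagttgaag
Mcm6, chr1:128359706-128359955, minus strand: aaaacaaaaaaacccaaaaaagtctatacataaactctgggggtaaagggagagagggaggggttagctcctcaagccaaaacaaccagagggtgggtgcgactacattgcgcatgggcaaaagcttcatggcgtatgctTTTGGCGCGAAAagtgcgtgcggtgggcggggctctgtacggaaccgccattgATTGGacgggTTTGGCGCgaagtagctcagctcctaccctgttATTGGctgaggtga

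In these stretches Top2a had 4 CHR matches and 6 CCAAT boxes, Mki67 had 2 and 3, and Ccnb2 had 1 and 3, while Spc25 had 2 CCAAT boxes and no CHR match. Mcm6 had 3 E2F matches, of which 2 overlap on opposite strands. RefSeq promoters were found for 40 of the 50 members, with 43 promoters in all. A CCAAT box was present in 23 of 25 promoters of mitotic members (92%) and 10 of 12 of S phase members (83.3%), against 33.8% of all 32851 promoters. A CHR was present in 9 of 25 mitotic (36%), 3 of 12 S phase (25%) and 17.1% of all promoters. An E2F match was present in 4 of 12 S phase promoters (33.3%), 1 of 25 mitotic (4%) and 1.86% of all. A match describes letters in the sequence and does not show that a factor binds there. The CHR and the CCAAT box together were in 9 of 25 mitotic promoters (36%) and 3 of 12 S phase promoters (25%), against 6.02% of all.

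Of the S phase members, Mcm2 to Mcm7 form the replicative helicase, Cdc6 loads it, and Cdc45 and Gins2 activate it. The 6 MCM genes summed to 223 to 372 CPM in heart Tregs and 203 to 337 in heart Tconvs, to 114 to 565 in MLN Tregs, 168 to 254 in spleen Tregs and 139 to 209 in NDLN Tregs, and to 61.9 to 115 in spleen and 29.6 to 192 in NDLN Tconvs. The heart T cells of both kinds were thus above the spleen and NDLN Tconvs in every library. Mcm6 was at 192, 116 and 64.1 CPM in heart Tregs, 291, 137 and 36.2 in MLN Tregs, 135, 75.4 and 68.9 in spleen Tregs and 39.1, 54.6 and 71.6 in NDLN Tregs. In Tconvs it was at 46.3, 93.7 and 93.4 in heart, 65.7, 40.3 and 10.2 in spleen and 21.2, 137 and 1.47 in NDLN. Only the spleen pair did not overlap (log2 fold change 1.26, SE 0.97, edgeR adjusted p = 0.89). Gins2 was at 39.8, 32 and 19.3 CPM in NDLN Tregs and at 0, 0 and 3.71 in NDLN Tconvs (log2 fold change 4.63, SE 2.37, edgeR adjusted p = 0.43), whereas in spleen Tregs (0, 44.3 and 70.1) and spleen Tconvs (23.9, 0.0393 and 9.04) the libraries overlapped. Cdc45 had 0 counts in NDLN Tconvs and Cdc6 in spleen Tconvs.

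Tyms, Rrm1 and Rrm2 supply nucleotides for replication, as does Tk1 of the third list. Tyms was at 67.8, 144 and 149 CPM in spleen Tregs against 0, 34.4 and 31.1 in spleen Tconvs, and at 88.6, 149 and 51.1 in NDLN Tregs against 46.7, 20.8 and 12.6 in NDLN Tconvs. Both pairs were apart, with log2 fold changes of 2.46 (SE 1.19) and 1.85 (SE 1.17) and edgeR adjusted p of 0.62 and 0.52. In the heart the Tyms groups overlapped (22.8, 74.9 and 110 against 35.2, 27.4 and 7.78). Tk1 had 0 counts in spleen Tconvs, and in spleen Tregs it was at 0, 83.7 and 53.9 CPM, so the libraries overlapped. The spleen Treg mean was at least 1008-fold above the floor of 3 counts over the group, a bound that covers counting error only (edgeR adjusted p = 0.41). In the heart Tk1 was at 19.5, 23.6 and 60.4 against 5.58, 0 and 0.175 CPM, with no overlap.

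Pcna, the sliding clamp, had a pattern of its own: its highest means were those of the heart groups, Tregs and Tconvs. It was at 470, 516 and 776 CPM in heart Tregs and 537, 634 and 418 in heart Tconvs, and at 241, 277 and 302 in MLN Tregs, 475, 418 and 309 in NDLN Tregs and 209, 467 and 295 in spleen Tregs. The Tconvs of NDLN (275, 209 and 242) and spleen (258, 340 and 212) were lowest. Heart Tregs lay above MLN Tregs in every library (log2 fold change 1.10, SE 0.31, edgeR adjusted p = 0.33; DESeq2 adjusted p = 0.014), and above all spleen Treg libraries as well (log2 fold change 0.86, SE 0.31, edgeR adjusted p = 0.41). Heart Tconvs lay above NDLN Tconvs (log2 fold change 1.13, SE 0.31, edgeR adjusted p = 0.055) and spleen Tconvs (0.97, SE 0.31, adjusted p = 0.17). Heart and NDLN Tregs overlapped (log2 fold change 0.55, SE 0.31, edgeR adjusted p = 0.36). These directions held under all 3 scalings tried. Heart Tregs and heart Tconvs overlapped, with a log2 difference of 0.15 (SE 0.31) that was -0.09 without TMM factors.

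**Figure D4:**
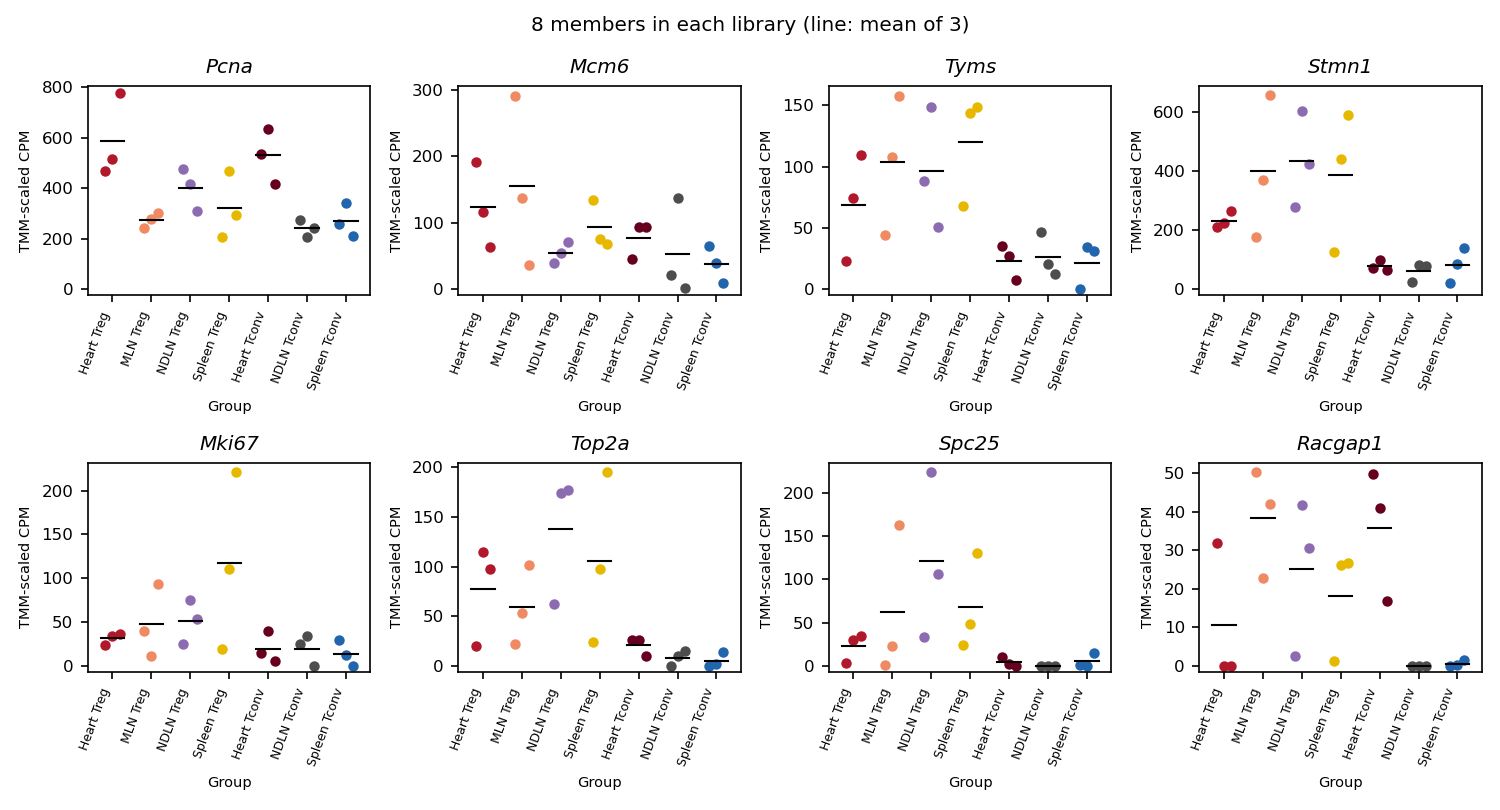
TMM-scaled CPM of Pcna, Mcm6, Tyms, Stmn1, Mki67, Top2a, Spc25 and Racgap1 in each library, by group, with a line at the mean of 3 libraries. Pcna has its highest means in the heart groups, Stmn1 and Top2a have higher means in each Treg group than in any Tconv group, and Racgap1 is at 0 in NDLN Tconvs and at 16.9 or more in heart Tconvs.

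The remaining list holds the G1/S cyclins Ccne1 and Ccne2, the factor E2f1, the DNA methylation maintenance factor Uhrf1, and 3 abundant genes. These are H2afz, which encodes a histone H2A variant, the microtubule destabiliser Stmn1 and the tubulin Tubb5. H2afz was at 976, 2220 and 2720 CPM in heart Tregs against 589, 636 and 924 in heart Tconvs, at 2460, 2680 and 4230 in spleen Tregs against 930, 1290 and 1040 in spleen Tconvs, and at 2190, 3720 and 3590 in NDLN Tregs against 444, 1100 and 1110 in NDLN Tconvs. No pair overlapped, and the log2 fold changes were alike in size: 1.46, 1.52 and 1.84 (SE 0.4 each), with edgeR adjusted p of 0.41, 0.33 and 0.058. DESeq2 called all 3, with adjusted p of 0.0061, 0.0042 and 3.8e-04. Per kilobase of exon H2afz had by far the highest mean level of the 50 members, 1030 CPM per kilobase, ahead of Pcna at 156 and Stmn1 at 125.

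Stmn1 was at 210, 223 and 265 CPM in heart Tregs against 74, 101 and 64.3 in heart Tconvs, at 127, 440 and 589 in spleen Tregs against 20.4, 87.5 and 140 in spleen Tconvs, and at 279, 603 and 424 in NDLN Tregs against 26.6, 82.1 and 79.4 in NDLN Tconvs. The heart and NDLN groups were apart, and the log2 fold changes were 1.55 (SE 0.62), 2.22 (SE 0.64) and 2.80 (SE 0.65), with edgeR adjusted p of 0.6, 0.43 and 0.073. Tubb5 overlapped between Tregs and Tconvs in each organ (log2 fold changes -0.29, 0.57 and 0.71). Ccne2 was at 24.7, 8.01 and 22.1 CPM in NDLN Tregs and at 0, 0.376 and 0 in NDLN Tconvs (log2 fold change 7.04, SE 2.03, edgeR adjusted p = 0.21). E2f1 was at 0 in 15 of the 21 libraries and never above 3.97 CPM.

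Heart Tregs were set against the Tregs of the lymphoid organs, to ask whether Tregs in the injured tissue differ from those elsewhere. The mitotic members had mostly lower fitted levels in the heart: 25 of 29 against spleen, 23 against NDLN and 23 against MLN, with median log2 fold changes of -1.09, -1.21 and -0.72. The S phase members had mostly higher ones, 10 of 13, 10 and 8, with medians of 0.50, 0.55 and 0.13. The same heart Treg libraries enter all 3 comparisons. Against the MLN the S phase median was not positive in 5 of 16 alternatives: it was -0.15 without TMM factors, which moved the median of all genes from -0.12 to -0.33 as well. It was -0.17 when only the 5 libraries with little mitochondrial ribosomal RNA were used, where heart Tregs are 1 library, -0.06 without heart Treg 2, -0.14 without MLN Treg 3 and -0.14 without the libraries high in erythroid transcripts, and against the spleen it was -0.10 without the latter. The mitotic median against the MLN was -0.02 without them. edgeR called 0 members in each, where 0.147, 0.533 and 0.0667% of all genes were called, and 3, 2 and 3 members were under 0.05 before adjustment (6, 4 and 6% of the members, against 11.7, 15.5 and 9.58% of all genes). By DESeq2 the calls were 1, 1 and 2 members (background 9.02, 12.2 and 7.42%), and limma-voom 1 in each (background 1.89, 2.72 and 1.41%). These shares of the members are near or below the background.

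The single members give little more. Stmn1 was lower in every heart Treg library than in every NDLN Treg library (log2 fold change -0.90, SE 0.61, edgeR adjusted p = 0.48), and so was Cdk1 (log2 fold change -1.58, SE 1.85, adjusted p = 0.77). Top2a overlapped in all 3 comparisons: it was at 22.5, 52.9 and 102 CPM in MLN Tregs, within the range of the heart Tregs. Heart Treg 1 had the lowest mitotic sum of the 12 Treg libraries, at 537 CPM, with 0 counts for Cdk1 and Ccnb1, and it belongs to the 5 libraries that stood apart. Among the lymphoid Treg groups most members overlapped. The medians of the mitotic list were -0.34 (MLN against NDLN), -0.26 (MLN against spleen) and 0.10 (NDLN against spleen). 0 members were called by edgeR, DESeq2 or limma-voom, and 0 had an unadjusted p under 0.05. The background was 0.00667, 0 and 0.00667% of genes for edgeR, 6.28, 3.76 and 4.1% for DESeq2, and 0.273, 0.107 and 0% for limma-voom. Spleen Treg 1 had 9 of 13 S phase members detected against 13 of 13 in the other 2 spleen Treg libraries.

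Heart Tconvs were set against spleen and NDLN Tconvs. Of the S phase members, 11 of 13 had a higher fitted level in heart than in spleen and 11 of 13 higher than in NDLN, with medians of 1.15 and 1.13, against 0.27 and 0.48 for all genes tested. The mitotic medians were 0.16 against spleen, a sign not kept in 6 of 14 alternatives, and 1.94 against NDLN. Every heart Tconv library was above every spleen Tconv library for 7 members and above every NDLN Tconv library for 12, which is 14 and 24% of the members, against 14.3 and 16.6% of all genes. Against the spleen this share is that of the background. edgeR called 0 members against the spleen (background 0.473%) and 1 against the NDLN (background 2.88%). Before adjustment 11 and 15 members were under 0.05, 22 and 30% of the members against 12.5 and 18.6% of all genes. DESeq2 called 9 and 15 members (background 9.8 and 18%), and limma-voom 0 and 2 (background 1.48 and 6.84%).

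The called member was Racgap1 (chr15:99620496-99651656, minus strand, GRCm38). It was at 49.7, 41.1 and 16.9 CPM in heart Tconvs and at 0, 0 and 0 in NDLN Tconvs, with 2491 counts against 0. Heart Tconvs were at least 630-fold above the floor of 3 counts over the group, and the fitted log2 fold change was 12.64 (SE 3.29, edgeR adjusted p = 0.044). The call was lost without any 1 of the 6 libraries (edgeR adjusted p of 0.051 to 0.12), with only the 2 groups compared (adjusted p = 0.091), with the library set as a covariate (0.13) or without the 5 libraries with little mitochondrial ribosomal RNA (0.21). The log2 fold changes in these 3 fits were 12.51, 10.87 and 11.54, and the last leaves heart Tconvs with 1 library, whose spread is taken from the other groups. In spleen Tconvs Racgap1 was at 0, 0.236 and 1.5 CPM, below every heart Tconv library. In heart Tregs a single library carried it (32, 0 and 0.0379 CPM), so Racgap1 was higher in heart Tconvs than in 2 of 3 heart Tregs while most mitotic members were lower there. For NDLN against spleen Tconvs the mitotic median was -2.51 and the S phase median -0.16. edgeR called 0 members there (background 0.04%; before adjustment 18 members, or 36%, were under 0.05, against 8.35% of all genes), DESeq2 16 (3 higher and 13 lower in NDLN, background 8.44%) and limma-voom 0 (background 0.307%).

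Whether the gap between Tregs and Tconvs differs between organs was tested with interaction terms. edgeR called 0 members in the test of spleen against heart (background 0.0133%), NDLN against heart (0.0133%) and NDLN against spleen (0%), with 6, 12 and 14 members under 0.05 before adjustment (12, 24 and 28% of the members, against 7.5, 9.94 and 6.92% of all genes). The mitotic medians of these differences were 1.33, 5.24 and 3.83, against 0.31, 0.37 and 0.08 for all genes. The size of the 2 NDLN values rests in part on NDLN Tconvs at or near 0 counts. With the floor of 3 counts over the group, the NDLN Treg-Tconv median itself fell from 10.30 to 7.10, and no floored differences were computed. DESeq2 called 5, 10 and 13 members (background 5.63, 9.17 and 6.69%), and limma-voom 0, 1 and 0 (background 0.347, 0.493 and 0%). For no single member was the difference between organs called by edgeR.

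The other genes of the pathway were taken from lists of 20 replication genes, 40 mitosis genes and 22 regulators of G1. Of the 40 mitosis genes, 39 had a higher fitted level in NDLN Tregs than Tconvs, 37 in spleen and 26 in heart, with medians of 4.36, 3.90 and 1.42. Of the 20 replication genes 17, 18 and 12 did so, and of the 22 G1 regulators 13, 18 and 14. The share of all genes tested was 51, 51.8 and 43.7%. At an unadjusted p under 0.05 there were 21, 17 and 6 mitosis genes (4 of the 6 lower in heart Tregs) and 6, 3 and 2 replication genes. These are 52.5, 42.5 and 15% of the mitosis genes and 30, 15 and 10% of the replication genes. Of all genes 11.6, 7.33 and 7.81% were under 0.05, so the heart share of the replication genes is near the background. After adjustment edgeR called 0 of both lists in these comparisons. In the NDLN, 1 of 22 G1 regulators was called higher in Tregs, Cdkn2c, an inhibitor of the G1 kinases CDK4 and CDK6: it was at 36.2, 59.7 and 28.3 CPM in NDLN Tregs and 0, 0 and 0.0863 in NDLN Tconvs (log2 fold change 10.55, SE 2.18, adjusted p = 0.039). In the spleen 1 of 22 was called, Cdkn1a, and in the heart 0 of 22, with 2 under 0.05 before adjustment. Over all genes 0.3, 0.06 and 0.0667% were called in NDLN, spleen and heart. The 2 in the heart are 9.09% of the G1 regulators, against 7.81% of all genes. The condensin subunit Smc4 was the only 1 of the 40 mitosis genes called between heart and NDLN Tregs, where 0.533% of all genes were called. It was at 269, 289 and 268 CPM in heart Tregs and 635, 660 and 638 in NDLN Tregs, with little spread (log2 fold change -1.23, SE 0.26, edgeR adjusted p = 0.034). Ndc80, the partner of Spc24 and Spc25, was called higher in heart than NDLN Tconvs (6.31, 41.1 and 4.37 against 0.0586, 0.0418 and 0.259 CPM, log2 fold change 7.18, SE 1.75, edgeR adjusted p = 0.029), as was the CDK1-activating phosphatase Cdc25b (edgeR adjusted p = 0.035). They are 2 of the 40 mitosis genes, in a comparison where 2.88% of all genes were called.

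Cdkn1a encodes p21, an inhibitor of cyclin-dependent kinases that halts the cycle, and it had the most calls of the pathway genes. It was at 97.7, 219 and 269 CPM in heart Tregs and 160, 198 and 190 in heart Tconvs. It was at 30, 15.4 and 6.68 in spleen Tregs, 10.9, 9.76 and 4.36 in MLN Tregs and 0.0953, 0.058 and 0.0799 in NDLN Tregs, and at most 0.0863 in the spleen and NDLN Tconvs. Both heart groups were thus above every other library. The log2 fold change of spleen Tregs against spleen Tconvs was 9.74 (SE 1.07, edgeR adjusted p = 1e-04), of heart against NDLN Tregs 11.18 (SE 1.06, edgeR adjusted p = 1.9e-05), of heart against MLN Tregs 4.55 (SE 0.79, adjusted p = 0.047), and of heart against spleen Tconvs 13.13 (SE 1.17, adjusted p = 6.1e-06). The Treg-Tconv gap of Cdkn1a was larger in spleen than heart (log2 difference 9.64, SE 1.23, edgeR adjusted p = 0.0022).

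Across libraries the mitotic members were more alike in their order than the S phase members. As a description, without a test, the median Spearman correlation over pairs of mitotic members was 0.60 over the 21 libraries and 0.43 over the 12 Treg libraries. For pairs of S phase members it was 0.41 and 0.17. Between an S phase and a mitotic member it was 0.37 over all libraries and 0.01 over the Treg libraries, and the 2 sums had correlations of 0.58 and -0.08. Within the Tregs the order of the libraries by one sum thus said little about their order by the other. Of the abundant members, Stmn1 followed the mitotic sum most closely, at 0.94 over 21 and 0.86 over 12 libraries, with H2afz at 0.89 and 0.80, Mki67 at 0.70 and 0.79, and Pcna at 0.21 and 0.00. These values share the libraries' depth and makeup, and the groups of 3 libraries are not independent points. The mitotic sum had a correlation of 0.20 with the number of genes detected.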

How the data were processed

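RNA was measured in 21 libraries, 3 per group. The deposited values are whole-number counts of reads per gene, which the authors made with CASAVA 1.8.2, HISAT2 and HTSeq 0.6.0 on mm10, per the submitters' processing notes; no source used here gives the annotation, the strand setting or the treatment of multiply matched reads. Reads were not collapsed by molecular identifiers. Per the labels' protocols, cells were enriched on magnetic beads, sorted by flow cytometry and lysed, and their RNA was amplified with a SMARTer ultra-low-input kit. The members and lists were chosen with earlier results of these data known.

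All 21 libraries entered 1 edgeR 4.0.16 fit (R 4.3.3) with a coefficient per group: filterByExpr (minimum count 10, minimum total 15) kept 14996 genes, TMM factors ran from 0.798 to 1.35, and robust quasi-likelihood F-tests were adjusted by Benjamini-Hochberg over all genes and called at 0.05. SEs were derived from the fold change and F. The fit was also run on simulated counts with the same dispersion for every gene and no library set. Such counts are simpler than the real data, and no result here rests on them. DESeq2 1.42.0, limma-voom (limma 3.58.1), other scalings and filters, a replicate block, library subsets and leave-one-out fits were alternatives; the fits within the 5 libraries with little mitochondrial ribosomal RNA and without libraries high in erythroid markers were chosen after seeing the data. Named members were the called ones, the highest of each role, the 4 with the smallest p in each Treg-Tconv comparison, and Mki67, Top2a, Cdk1 and Pcna; others were named after their values were seen. Gene positions come from GENCODE M21 (GRCm38) and promoters from RefSeq (GRCm38.p6), counted from 1; 10 members without a listed promoter have none shown.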

Additional observations from a re-analysis of the deposited data

How the results depend on the processing

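The direction of the mitotic and S phase medians held in every Treg-Tconv comparison under each of 14 or 15 alternatives (the third list was not run): the mitotic medians ran from 0.55 to 3.08 in heart, 3.21 to 4.42 in spleen and 7.49 to 11.87 in NDLN, and the lowest heart value came from the 5 libraries with little mitochondrial ribosomal RNA, with 1 heart Treg library. The number of members called did depend on the processing. Under DESeq2 it was 6, 11 and 25 for Treg against Tconv of heart, spleen and NDLN, 1, 1 and 2 for heart Tregs against spleen, NDLN and MLN Tregs, 9 and 15 for heart Tconvs against spleen and NDLN Tconvs, 16 for NDLN against spleen Tconvs, and 5, 10 and 13 for the 3 interactions. Under limma-voom the same order gave 1, 3 and 15, then 1, 1 and 1, 0 and 2, 0, and 0, 1 and 0. Without the filter on low counts the Treg-Tconv counts were 6, 8 and 23, heart Tconvs had 5 and 12, NDLN against spleen Tconvs 10, and the interactions 1, 7 and 4.

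For NDLN Tregs against Tconvs the count was 1 without robust estimation and 0 with only the groups compared. For heart against NDLN Tconvs it was 2 without TMM factors, and 0 without robust estimation, with only the groups compared, with the library set as covariate, or with only the 16 libraries. Heart Treg against Tconv had 1 within the 5 libraries, where heart Tregs are 1 library, whose spread is taken from the other groups. Leaving out 1 library at a time gave 1 to 4 for NDLN Treg against Tconv and 0 to 2 for heart against NDLN Tconvs, the highest in both without NDLN Tconv 2, and 0 to 1 for heart against spleen Tconvs, NDLN against spleen Tconvs, and spleen Treg against Tconv, and 0 in the other comparisons. Scaling moved the median of all genes by at most 0.48 in log2, for heart against NDLN Tconvs without TMM factors.

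With the replicate number as a block, spleen Treg against Tconv had 1 member called and NDLN Treg against Tconv 4; Racgap1 was lost (adjusted p = 0.063). Same-numbered libraries correlated at -0.06 to 0.18 in their deviations from the group means, and in no comparison were all 3 pairs over 0.1, so the numbers are not taken as pairing.

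Depth was 14515387 to 28323649 counts, and 3 counts are 0.106 to 0.207 CPM.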
